A study of Mus musculus with 6 samples.

Results

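A set of 10 genes of hereditary deafness were followed at the mRNA level in the newborn mouse inner ear: Coch, Wfs1, Gsdme (formerly Dfna5), Pjvk (formerly Dfnb59), Loxhd1, Myh9, Myh14, Diaph1, Eya4 and Triobp. They were chosen by symbol as known deafness genes, and all 10 were among the 39179 genes of the count files. Earlier results of these data were known when these genes and the lists of related genes used below were chosen. Shares called among them are therefore description only. RNA-seq had been done on the sensory epithelium of the cochlea, the organ of hearing, and of the vestibule, the organ of balance, with 3 libraries from each. Both tissues came from wild type C57Bl/6J mice at postnatal day 0 (P0), males and females together, and each RNA pool came from 20 or more cochleae or vestibules. The labels do not say that the libraries of a tissue came from separate pools, so p-values measure the spread between libraries, which may be technical.

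The products of these genes work at different places in the ear. Coch encodes cochlin, an abundant protein of the extracellular matrix around the sensory organs, and Wfs1 encodes wolframin, a membrane protein of the endoplasmic reticulum. Loxhd1 encodes a protein of repeated PLAT domains that lines the stereocilia of hair cells, while Myh9, Myh14, Diaph1 and Triobp encode proteins of the actin cytoskeleton. Eya4 encodes a transcriptional coactivator and phosphatase of the network that builds the otic placode, and Gsdme and Pjvk belong to the gasdermin family, whose best known members form membrane pores in cell death. In people, changes in Coch, Wfs1, Gsdme, Myh9, Myh14, Diaph1 and Eya4 are known for dominant hearing loss, and changes in Pjvk, Loxhd1 and Triobp for recessive hearing loss. Hearing loss from changes in Coch is often joined by loss of balance.

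The counts on genes ranged from 24464483 to 29225105 in the cochlear libraries and from 25476572 to 33664793 in the vestibular ones. Levels are given as CPM, each count scaled to the summed counts on genes of its library, in which 1 CPM stood for 24.5 to 33.7 counts, and differences as log2 fold changes, vestibule minus cochlea, fitted after TMM scaling of the libraries. Differential expression (DE) was called with edgeR's quasi-likelihood test at a Benjamini-Hochberg FDR of 0.05 over the 14723 genes that reached 1 CPM in 3 or more of the 6 libraries. The tissues also differed in their cell type markers. The summed level of 14 hair cell markers was 873 to 985 CPM in the cochlea and 1251 to 1567 CPM in the vestibule, that of 10 supporting cell markers was 9072 to 12428 and 3827 to 4327 CPM, and that of 8 markers of periotic mesenchyme and fibrocytes was 3754 to 4567 and 7023 to 8113 CPM. Tecta alone made up 7010 to 9689 CPM of the supporting cell sum in the cochlea and 412 to 555 CPM in the vestibule. Without Tecta, the other supporting cell markers summed higher in the vestibule. In bulk samples such as these, fewer cells of a type and less RNA per cell cannot be told apart. Cochlear replicate 3 held 251 CPM of 7 skeletal muscle markers, against 3.47 to 24.1 CPM in the other libraries, and the part of muscle RNA in the values of that library was not tested.

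All 10 genes passed the filter, and 4 of them (40%) were called DE, where 27.4% of all genes tested were. Of these, 3 were higher in the vestibule (Coch, Wfs1 and Loxhd1), where 15.8% of all genes were called, and 1 was higher in the cochlea (Eya4), where 11.6% were. The other 6 were not called, which does not show that their levels were equal. The median log2 fold change of the 10 genes was 0.04, with 5 positive and 5 negative, beside 0.0048 over all genes. The median size of the change, with no regard to direction, was 0.38 beside 0.32. Coch and Wfs1 alone had libraries that did not overlap between the tissues in CPM, 20% of the members against 41.8% of all genes tested. After TMM scaling, Eya4 joined them, and the share over all genes was again 41.8%.

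**Figure D1:**
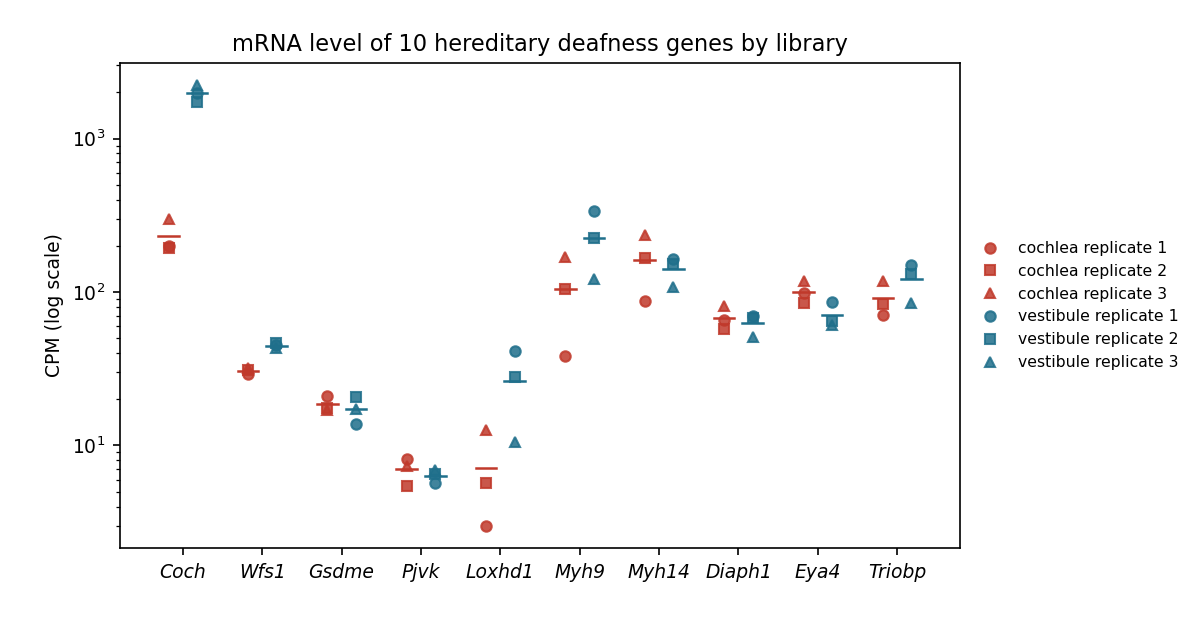
Level of each gene in CPM (log axis) in the 3 cochlear libraries (red) and the 3 vestibular libraries (blue), with the symbol shape giving the replicate and a bar at the mean of the tissue. Coch stands apart, at 194 to 298 CPM in the cochlea and 1739 to 2233 CPM in the vestibule, while Loxhd1 and Myh9 spread widely within each tissue.

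The order of the genes was compared per length, in RPKM (CPM per kilobase of gene, with the lengths behind the authors' values). This order, and the RPKM shares and ratio given below, depend on those lengths. Eya4, for example, had 4.184 kb there against 9.419 kb of GENCODE exons, and Gsdme 7.358 against 12.74 kb. In the cochlea the means were 85.9 for Coch, 24.0 for Eya4, 22.4 for Myh14, 10.7 for Diaph1, 8.66 for Wfs1, 8.51 for Triobp, 8.07 for Myh9, 5.13 for Pjvk, 2.52 for Gsdme and 0.868 for Loxhd1. Neighbours in this order overlapped among libraries except at 4 steps, from Coch to Eya4, from Diaph1 to Wfs1, from Pjvk to Gsdme and from Gsdme to Loxhd1. In the vestibule the RPKM means were 741 for Coch, 19.4 for Myh14, 17.6 for Myh9, 16.9 for Eya4, 12.6 for Wfs1, 11.4 for Triobp, 9.94 for Diaph1, 4.68 for Pjvk, 3.23 for Loxhd1 and 2.34 for Gsdme. Here 3 steps were free of overlap, from Coch to Myh14, from Eya4 to Wfs1 and from Diaph1 to Pjvk. Coch led in both tissues, with 96.5% of the genes tested below it in the cochlea and 99.6% in the vestibule. Loxhd1 in the cochlea stood lowest, with 13.3% of the genes below it.

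**Figure D2:**
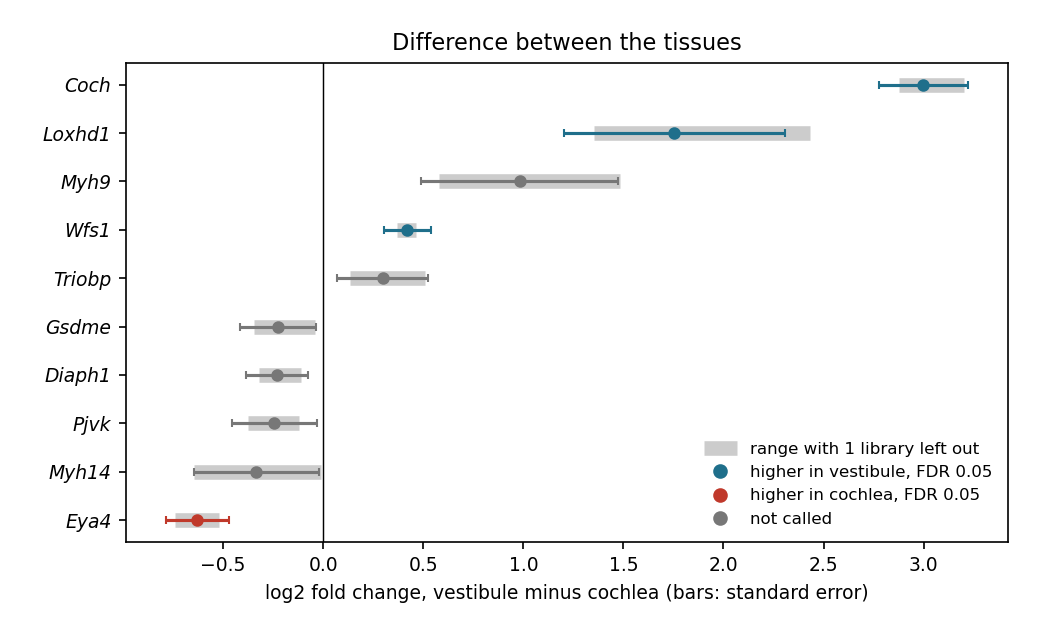
Log2 fold change of each gene, vestibule minus cochlea, with its standard error (line) and the range of estimates when each of the 6 libraries was left out (grey bar), coloured by the call at an FDR of 0.05. Coch lies at 3.00 with a narrow range of 2.88 to 3.20, while Loxhd1 runs from 1.35 to 2.43 and Myh9 from 0.58 to 1.48.

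Coch showed the largest difference of the 10 genes. It was at 199, 194 and 298 CPM in the cochlear libraries and at 1982, 1739 and 2233 CPM in the vestibular ones, means of 230 ± 58.5 and 1985 ± 247 CPM (SD, n = 3 each). Every vestibular library lay far above every cochlear one. The log2 fold change was 3.00 (SE 0.22), which is 7.99-fold (edgeR's quasi-likelihood test, adjusted p = 3.09e-05), and it stayed between 2.88 and 3.20 when each library was left out in turn. Set against the fibrocyte and mesenchyme markers of the same library, Coch stood at 43.5, 51.7 and 74 CPM per 1000 CPM of markers in the cochlea and at 244, 248 and 297 in the vestibule, so the groups remained apart on that measure too. The marker genes themselves went both ways, with 2 of 8 higher in the cochlea and 3 of 8 in the vestibule.

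Coch lies at chr12:51593341-51605771 on the plus strand of GRCm38 (GENCODE vM21). Its upstream window is shown because it belongs to the gene with the largest tissue difference: the 250 bases before the RefSeq start, chr12:51593091-51593340, plus strand, GRCm38.p6. They are written 5′ to 3′ with GC boxes (GGGCGG, either strand) in capitals.
Coch upstream: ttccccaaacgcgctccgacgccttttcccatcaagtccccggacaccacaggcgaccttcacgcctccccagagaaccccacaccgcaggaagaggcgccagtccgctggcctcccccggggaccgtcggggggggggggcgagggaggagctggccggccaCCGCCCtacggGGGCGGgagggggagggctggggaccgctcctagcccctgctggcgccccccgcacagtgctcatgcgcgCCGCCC
The window held 3 GC boxes, a motif present in 32.7% of the 32851 windows of this length in the RefSeq table. It held no TATA box (TATAAA, 12.4% of windows) and no CCAAT box (CCAAT, 33.8%), both searched on either strand. No motif found overlapped another. With 24 CpG and 74.8% G or C, it was far richer in CpG than the median window, which had 6 CpG and 52.4% G or C. The windows describe sequence only, and binding was not measured.

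Among 16 relatives and neighbours of Coch, matrix proteins with LCCL or von Willebrand A domains and genes of fibrocytes, 15 were tested, 8 were higher in the vestibule and 3 in the cochlea, 73.3% in all against 27.4% of all genes. The list was chosen with earlier results of these data known, so its share called is description only. The median log2 fold change was 1.08. Vit, which encodes vitrin and shares both domain types with cochlin, was at 3.07, 2.08 and 2.60 CPM in the cochlea and at 76.3, 64.9 and 83.9 CPM in the vestibule, a log2 fold change of 4.75 (SE 0.20, adjusted p = 3.47e-06, edgeR). Col14a1, a collagen that binds to fibrils, was at 83.6 to 107 CPM in the cochlea and at 801 to 1143 CPM in the vestibule (log2 fold change 3.20). In the other direction, Lum, which encodes the small proteoglycan lumican, had a log2 fold change of −2.51, from 747 to 968 CPM in the cochlea to 151 to 180 CPM in the vestibule. Otos, a fibrocyte gene that encodes otospiralin, was low in both tissues, at 1.60 to 3.02 CPM and 0.550 to 0.935 CPM (log2 fold change −1.70), and had passed the filter through the cochlear libraries alone. Vit, the closest relative of Coch, thus showed the largest change of the list, and the list as a whole did not move in a single direction.

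Wfs1 differed less but with the tightest libraries of the 10 genes. It was at 29.4, 30.9 and 32.1 CPM in the cochlea and 44.9, 46.4 and 43.0 CPM in the vestibule, with a highest to lowest ratio of 1.09 and 1.08 within the tissues. The groups did not overlap. The log2 fold change was 0.42 (SE 0.12, adjusted p = 0.0288, edgeR), or 1.34-fold. The call did not survive without cochlear replicate 1 (adjusted p = 0.103), cochlear replicate 2 (0.0551), vestibular replicate 2 (0.125) or vestibular replicate 3 (0.0599), or with no filter on low counts (0.0750), while the log2 fold change stayed within 0.37 to 0.47 without any 1 library. Wfs1 lies at chr5:36966104-36989205 on the minus strand.

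Of 16 genes of the unfolded protein response and of calcium in the endoplasmic reticulum, all were tested, 2 were higher in the vestibule and none in the cochlea, and the median log2 fold change was 0.08. Itpr1, a calcium release channel of this membrane, was at 30.0, 31.3 and 62.1 CPM in the cochlea and 249, 168 and 107 CPM in the vestibule (log2 fold change 1.96, SE 0.34, adjusted p = 0.00292, edgeR). Atf4, a transcription factor of the stress response, was at 108 to 118 and 168 to 174 CPM (log2 fold change 0.48, adjusted p = 0.0182), and its call was lost without cochlear replicate 1 (adjusted p = 0.0608) or vestibular replicate 2 (0.0646). With 12.5% called, the list stood under the 27.4% of all genes.

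Loxhd1 was the least abundant of the genes per length in the cochlea and, in the vestibule, the most scattered. Its levels were 2.98, 5.69 and 12.7 CPM in the cochlear libraries, on 73, 164 and 370 counts. In the vestibule they were 41.0, 28.0 and 10.5 CPM, on 1379, 719 and 268 counts. Vestibular replicate 3 fell under cochlear replicate 3, so the groups overlapped. The log2 fold change was 1.75 (SE 0.55, adjusted p = 0.0455, edgeR), 3.37-fold. The call was lost without cochlear replicate 1 (adjusted p = 0.112), cochlear replicate 2 (0.162), vestibular replicate 1 (0.150) or vestibular replicate 2 (0.105), and in DESeq2 (0.0604). It held without cochlear replicate 3, with a log2 fold change of 2.43 (adjusted p = 0.0101), and without vestibular replicate 3, with 2.13 (adjusted p = 0.0159).

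The hair cell markers were higher in the vestibule for 7 of 14 genes and in the cochlea for 2. Per 1000 CPM of these markers in the same library, Loxhd1 was at 3.42, 5.82 and 12.9 CPM in the cochlea and at 26.1, 21.7 and 8.41 CPM in the vestibule. The scatter within each tissue was thus not removed by this division. The part of hair cell number in the difference was not tested. Of 12 other genes with a PLAT or lipoxygenase domain, 9 were tested, with 2 higher in each tissue, 44.4% in all against 27.4% of all genes. Alox8 (3.96 to 5.54 CPM in the cochlea, 0.589 to 1.09 in the vestibule, log2 fold change −2.69) and Alox15 (−2.15) were higher in the cochlea. Alox5 (1.47) and Alox12 (1.16) were higher in the vestibule, and all 4, which encode lipoxygenases, stayed under 6 CPM in every library. Alox5, Alox8 and Alox15 reached 1 CPM in all 3 libraries of a tissue only where they were higher, so the filter favoured their direction and the share called is no result about the list. The Alox15 call was lost without cochlear replicate 1 (adjusted p = 0.0517), cochlear replicate 2 (0.0851), vestibular replicate 1 (0.0615) or vestibular replicate 3 (0.0681).

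Eya4 was the one gene of the 10 called higher in the cochlea. It was at 98.8, 84.8 and 117 CPM there and at 86.1, 64.6 and 61.1 CPM in the vestibule. In CPM, vestibular replicate 1 lay just above cochlear replicate 2. After TMM scaling the values were 101, 92.0 and 120 against 79.2, 61.4 and 61.7, with no overlap. The log2 fold change was −0.63 (SE 0.16, adjusted p = 0.0176, edgeR), 1.55-fold. It kept its sign with library sizes alone (−0.51, adjusted p = 0.0692) but not its call, which was also lost without vestibular replicate 2 (adjusted p = 0.105) or vestibular replicate 3 (0.0581). Per 1000 CPM of hair cell markers, whose sum was higher in the vestibule, Eya4 was at 113, 86.7 and 119 CPM in cochlear libraries and at 54.9, 50.2 and 48.8 CPM in vestibular ones. Per 1000 CPM of supporting cell markers, whose sum was higher in the cochlea, the direction turned, with 10.9, 7.23 and 9.45 CPM against 19.9, 16.9 and 14.5 CPM. This turn rested on Tecta, at 7010 to 9689 CPM of the cochlear sum and 412 to 555 CPM of the vestibular one. Without Tecta, the other supporting cell markers summed higher in the vestibule, and Eya4 divided by them would not turn. Each division pushed Eya4 towards the tissue with the lower marker sum, so neither bears on the call. Eya4 lies at chr10:23102963-23350786 on the minus strand.

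The developmental network around Eya4, in which EYA proteins act as cofactors of transcription factors, held genes called in both directions. Of 13 further members, 10 were tested, 4 were higher in the cochlea (11.6% of all genes were) and 3 were higher in the vestibule (15.8% of all genes), with a median log2 fold change of −0.20. Eya1 (256, 296 and 274 CPM against 154, 151 and 144 CPM, log2 fold change −1.0) was higher in the cochlea. Pax2 (6.29 to 12.2 and 24.2 to 34.9 CPM) and Dach2 (4.69 to 5.83 and 16.7 to 17.9 CPM) each had a log2 fold change of 1.60. Eya2 was also higher in the vestibule (0.65, adjusted p = 0.0194, edgeR), a call lost without cochlear replicate 1 (0.0744), vestibular replicate 2 (0.0827) or vestibular replicate 3 (0.0515). Eya3 was not called (−0.22).

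Within the summed RPKM of the 4 Eya genes, Eya4 took 25.4%, 20.1% and 27.3% of the cochlear total and 28.8%, 23.1% and 23.5% of the vestibular one, means of 24.3% ± 3.71 and 25.1% ± 3.20 (SD, n = 3 each). These overlapped (exact two-sided permutation test, p = 0.9). Among the other Eya genes, Eya1 took 63.9% ± 3.14 in the cochlea and 51.4% ± 1.77 in the vestibule, Eya2 took 6.13% ± 0.508 and 15.6% ± 2.49, and Eya3 took 5.68% ± 0.105 and 7.83% ± 1.49, each without overlap (exact permutation test, p = 0.1 for each, the smallest that 3 against 3 libraries can give, adjusted to 0.16 over the 8 ratios compared).

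Myh9 and Myh14 encode heavy chains of nonmuscle myosin II, the motors of contractile actin bundles, together with Myh10. Myh9 was at 38.5, 105 and 169 CPM in the cochlea and 335, 224 and 121 CPM in the vestibule. The groups overlapped, with a 4.4-fold range inside the cochlea and 2.77-fold inside the vestibule. The log2 fold change of 0.98 (SE 0.49) did not pass the test (adjusted p = 0.179, edgeR), and passed in 1 of the 16 alternatives, without cochlear replicate 3 (1.48, adjusted p = 0.0488). Myh14 was at 87.4, 166 and 234 CPM in the cochlea and 163, 151 and 108 CPM in the vestibule, overlapping, with a log2 fold change of −0.33 (SE 0.31, adjusted p = 0.465). Myh10 was at 97.4, 191 and 228 CPM and at 277, 178 and 97.8 CPM (−0.04, adjusted p = 0.946), and the sign of this small value turned in 4 alternatives.

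Ratios inside a library were steadier than the levels. Myh9 made up 12.2%, 16.5% and 19.5% of the summed RPKM of the 3 heavy chains in cochlear libraries and 34.6%, 31.4% and 27.9% in vestibular ones, means of 16.1% ± 3.66 and 31.3% ± 3.32 (SD, n = 3 each). Myh14 made up 49.5%, 46.4% and 47.9% in cochlear libraries and 30.0%, 37.7% and 44.1% in vestibular ones, means of 47.9% ± 1.54 and 37.3% ± 7.08. Neither overlapped between the tissues (exact two-sided permutation test, p = 0.1 for each, again the smallest possible, adjusted to 0.16). Myh10 shares overlapped, at 36.0% ± 3.05 and 31.4% ± 3.77 (exact permutation test, p = 0.2). Myh14 thus held the largest share in every cochlear library. In vestibular replicate 1 it held the smallest, and in vestibular replicates 2 and 3 the largest. These ranks depend on the gene lengths used, 12.9 kb for Myh9 and 7.26 kb for Myh14. Their longest GENCODE transcripts are 7.433 and 6.499 kb.

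**Figure D3:**
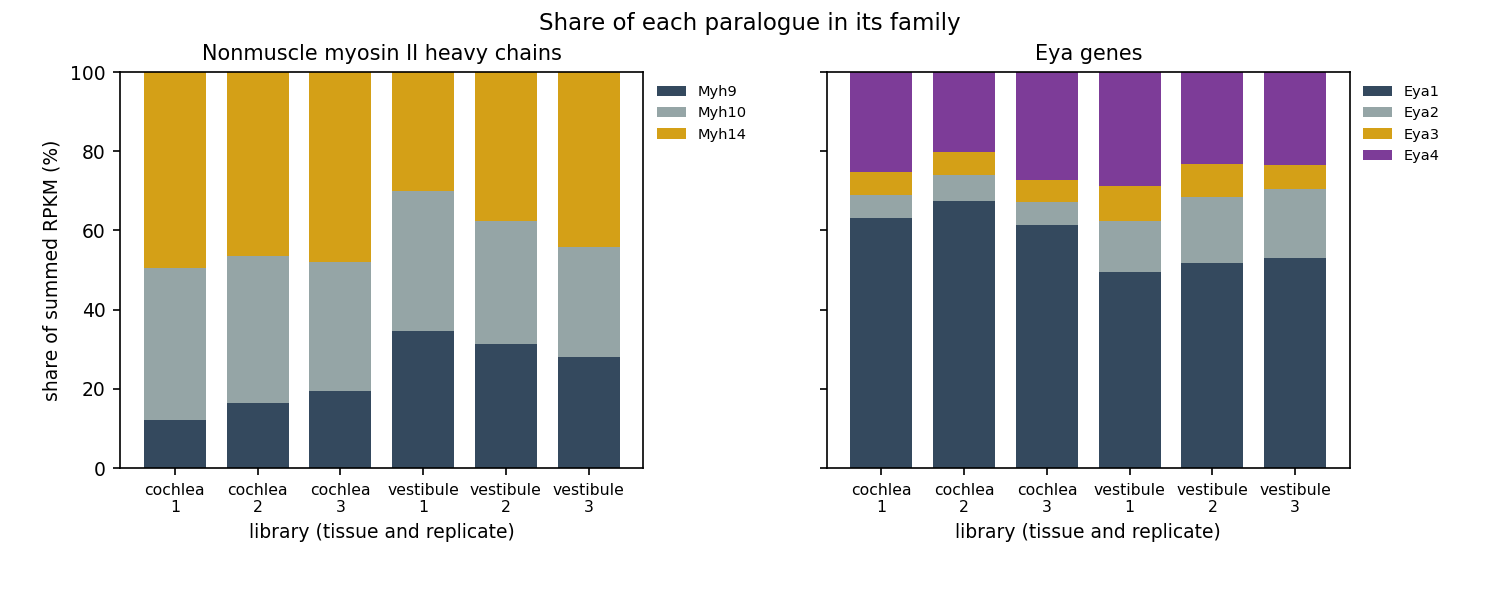
Share of each paralogue in the summed RPKM of its family (percent, stacked to 100) in each library, for the nonmuscle myosin II heavy chains (left) and the Eya genes (right). Myh9 takes 12.2% to 19.5% in the cochlear libraries and 27.9% to 34.6% in the vestibular ones, while the Eya4 share overlaps between the tissues.

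The upstream windows of Myh9 and Myh14 are set side by side because both encode heavy chains of the same motor. Both genes are on the minus strand of GRCm38, Myh9 at chr15:77760587-77842175 and Myh14 at chr7:44605803-44670843. The 250 bases before the RefSeq starts are chr15:77842176-77842425 and chr7:44670844-44671093 (GRCm38.p6), written 5′ to 3′ on the strand of the gene. Capitals mark GC boxes, CCAAT boxes and TATA boxes in either orientation.
Myh9 upstream: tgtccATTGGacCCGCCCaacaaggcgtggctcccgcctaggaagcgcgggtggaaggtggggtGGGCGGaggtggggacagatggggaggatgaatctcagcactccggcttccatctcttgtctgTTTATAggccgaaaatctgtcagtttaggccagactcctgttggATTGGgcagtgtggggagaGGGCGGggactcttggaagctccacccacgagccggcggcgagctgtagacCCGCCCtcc
Myh14 upstream: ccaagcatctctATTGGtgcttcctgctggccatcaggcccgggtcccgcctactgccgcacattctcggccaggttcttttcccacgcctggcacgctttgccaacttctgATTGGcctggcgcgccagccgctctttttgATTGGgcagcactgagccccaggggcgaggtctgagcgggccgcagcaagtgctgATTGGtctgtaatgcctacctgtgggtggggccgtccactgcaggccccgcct
The Myh9 window held 4 GC boxes, 2 CCAAT boxes and 1 TATA box, and the Myh14 window held 4 CCAAT boxes and neither of the others. None of these matches overlapped. Each window had 14 CpG. The E-box CACGTG, found in 6.02% of all windows, and the CArG box, bound by serum response factor and found in 1.47%, were in neither. Other RefSeq or GENCODE starts were not examined for these 2 genes.

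Triobp encodes a protein that bundles actin, and its long isoforms form the rootlets of stereocilia. The counts are per gene and do not separate these from the short isoform, which many tissues make. The levels were 70.7, 83.4 and 118 CPM in the cochlea and 149, 131 and 85.1 CPM in the vestibule, and the groups overlapped. Its log2 fold change was 0.30 (SE 0.23, adjusted p = 0.373, edgeR), between 0.13 and 0.51 with 1 library left out. Triobp lies at chr15:78947724-79005869 on the plus strand, where an antisense gene shares exon sequence, as one does for Myh14 (mean of 0.0618 CPM), and the strand setting of the counting is not given in the sources used here.

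Diaph1 encodes a formin that lengthens unbranched actin filaments. It was at 65.6, 57.3 and 80.6 CPM in the cochlea and 70.2, 67.8 and 50.6 CPM in the vestibule. The groups overlapped, with a log2 fold change of −0.23 (SE 0.16, adjusted p = 0.308, edgeR). Of 21 actomyosin partners, all tested, 4 were higher in the vestibule and 1 in the cochlea, 23.8% against 27.4% of all genes, with a median log2 fold change of 0.21. Tpm1, a tropomyosin that coats actin filaments (150, 170 and 161 CPM against 358, 352 and 337 CPM, log2 fold change 1.0, SE 0.12, adjusted p = 0.000478), and Rock2, a kinase that activates myosin II (0.94), were higher in the vestibule. Daam1, another formin, was higher in the cochlea (76.0, 73.9 and 80.0 CPM against 50.4, 40.3 and 29.0 CPM, −1.07). Fmnl2, also a formin, was higher in the vestibule (44.2, 38.7 and 49.4 CPM against 87.8, 76.9 and 66.3 CPM, 0.68, adjusted p = 0.00498, edgeR), so the called formins of the list differed in direction. Diaph2 and Diaph3 were not called.

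Gsdme and Pjvk, the gasdermin pair, showed no called difference. Gsdme was at 21.0, 17.7 and 17 CPM in the cochlea and 13.8, 20.7 and 17.2 CPM in the vestibule (log2 fold change −0.22, SE 0.19, adjusted p = 0.420, edgeR). Pjvk was at 8.13, 5.42 and 7.39 CPM in the cochlea and 5.67, 6.50 and 6.91 CPM in the vestibule (log2 fold change −0.24, SE 0.21, adjusted p = 0.433). Both overlapped between the tissues in CPM. Per 1000 CPM of hair cell markers, whose sum was higher in the vestibule, Pjvk was at 9.31, 5.54 and 7.5 CPM in cochlear libraries and at 3.62, 5.05 and 5.52 CPM in vestibular ones, a division that lowers the vestibular values. Per length, Gsdme stood at 0.502 ± 0.0912 of the Pjvk level in cochlear libraries and at 0.499 ± 0.0780 in vestibular ones (ratio of RPKM, SD, n = 3 each), a difference that the exact two-sided permutation test did not separate (p = 1). Pjvk rested on 156 to 216 counts per library, so its counting error was larger than that of the abundant genes. Pjvk lies at chr2:76648476-76658556 on the plus strand, and Gsdme at chr6:50188888-50263862 on the minus strand, where it overlaps Mpp6 on the other strand outside the exons.

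Among 11 other genes of gasdermins and pyroptosis, 8 were tested, 4 were called higher in the vestibule and 1 in the cochlea, where 27.4% of all genes were called in either direction. Of the 4, Nlrp3, Casp1 and Casp4 had passed the filter through the vestibular libraries alone, so their direction was fixed by it and the count is no result about the list. Nlrp3 (0.164 to 0.274 CPM in the cochlea and 1.06 to 1.46 CPM in the vestibule, log2 fold change 2.44) and Casp1 (0.208 to 0.409 and 1.60 to 1.92 CPM, 2.41), a sensor and the protease of the inflammasome, were no longer tested once any vestibular library was left out. All 7 macrophage markers were also higher in the vestibule, with a summed level of 93.0 to 109 CPM in the cochlea and 380 to 444 CPM in the vestibule, and their part in these differences was not tested. Gsdmd, the pore former of pyroptosis, was at 4.41, 5.14 and 5.44 CPM and at 11.6, 8.41 and 6.71 CPM (0.70, adjusted p = 0.0467, edgeR), a call lost without cochlear replicate 1 (0.143), cochlear replicate 2 (0.0986), cochlear replicate 3 (0.0573), vestibular replicate 1 (0.157) or vestibular replicate 2 (0.109).

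Libraries of one tissue also differed in a way that several of these genes shared. Loxhd1, Myh9, Myh14 and Triobp were lowest in cochlear replicate 1 and highest in cochlear replicate 3, and highest in vestibular replicate 1 and lowest in vestibular replicate 3. This order was taken from Myh9, which thus holds it by definition. The same order was found in 11.6% of all genes tested, in 27.3% of the 3269 genes of at least 6 kb and in 3.14% of the 2834 genes of at most 2 kb. All 4 genes are long, from 7.26 kb for Myh14 to 12.9 kb for Myh9, as are Gsdme and Diaph1, which did not show the order. The mean log2 deviation of long genes from their tissue mean, minus that of short genes, was −0.16, −0.07 and 0.23 in cochlear replicates 1, 2 and 3 and 0.32, −0.01 and −0.31 in the vestibular ones. Single genes spread more than such means do. Myh9, for example, deviated by −1.22, 0.31 and 0.91 and by 0.62, 0.09 and −0.71, and Loxhd1 by −1.03, −0.02 and 1.04 and by 0.78, 0.27 and −1.05. With an offset for gene length in each library, chosen after seeing the data, the log2 fold changes were 1.71 for Loxhd1 (adjusted p = 0.0231), 0.92 for Myh9 (0.0938), 0.39 for Wfs1 (0.0304) and −0.66 for Eya4 (0.00706), and no call among the 10 genes changed. What set the length trend was not tested.

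**Figure D4:**
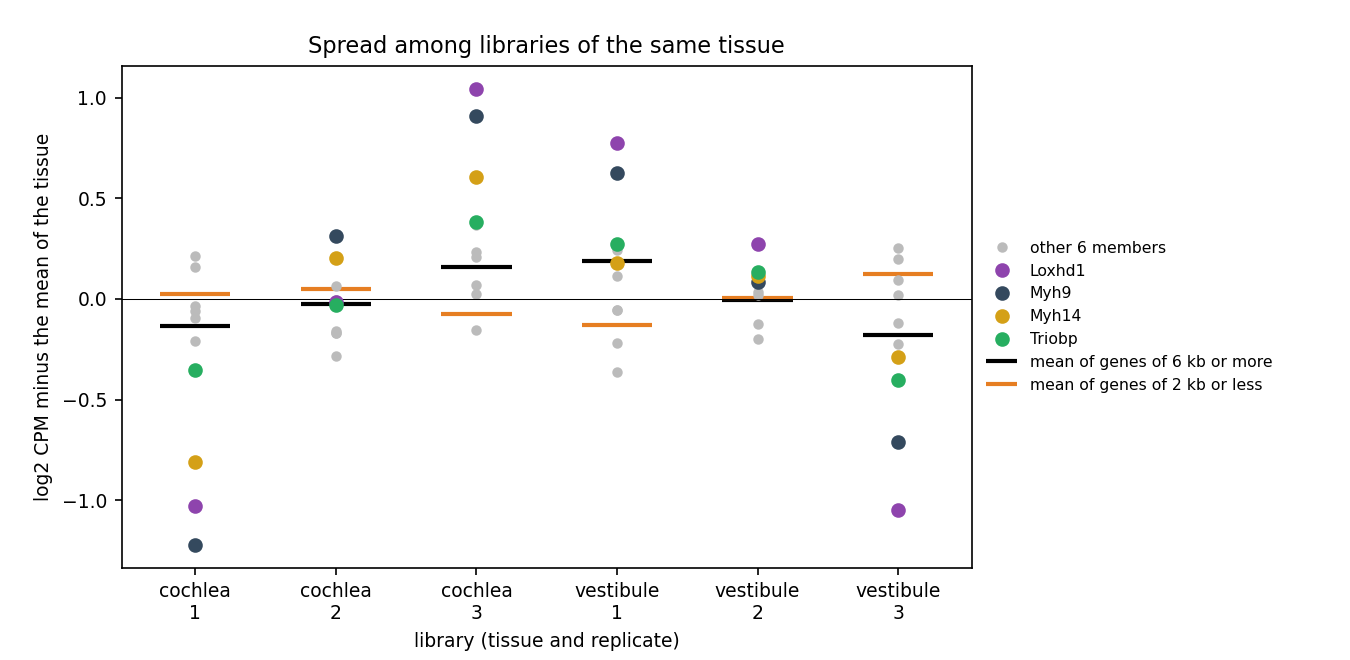
Deviation of each gene from the mean of its tissue (log2 CPM after TMM scaling) in each library, with the 4 long genes that share an order in colour, the other 6 members in grey, and bars for the mean of all genes of at least 6 kb (black) and at most 2 kb (orange). The coloured points lie on the side of the black bar in cochlear replicates 1 and 3 and in vestibular replicates 1 and 3, and farther out, except Myh14 in vestibular replicate 1.

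A further 44 genes of hereditary deafness gave the setting for these 10. Of these, 42 were tested, 10 were higher in the vestibule and 6 in the cochlea, 38.1% in all against 27.4% of all genes, with a median log2 fold change of 0.07. Slc17a8, which encodes the vesicular glutamate transporter VGLUT3, was at 7.60, 6.18 and 9.85 CPM in the cochlea and 105, 102 and 120 CPM in the vestibule (log2 fold change 3.68, SE 0.19, adjusted p = 5.79e-06, edgeR). Esrrb, a nuclear receptor of endolymph-secreting cells, was at 13 to 19.4 and 163 to 187 CPM (3.35). In the cochlea, Clic5, a protein of the stereocilia base, was higher (92.7 to 105 against 21.7 to 23.2 CPM, −2.27), as was Slc26a5, which encodes prestin, the motor of outer hair cells (1.55, 1.67 and 3.32 CPM against 0.149, 0 and 0.0785 CPM). Prestin mRNA was thus at or near 0 in the vestibule, on 5 counts at most in a library, and the gene had passed the filter through the cochlear libraries alone, which fixed its direction. Nlrp3, described with the gasdermins, is counted in this list too, with its direction fixed in the same way by the vestibular libraries.

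**Figure D5:**
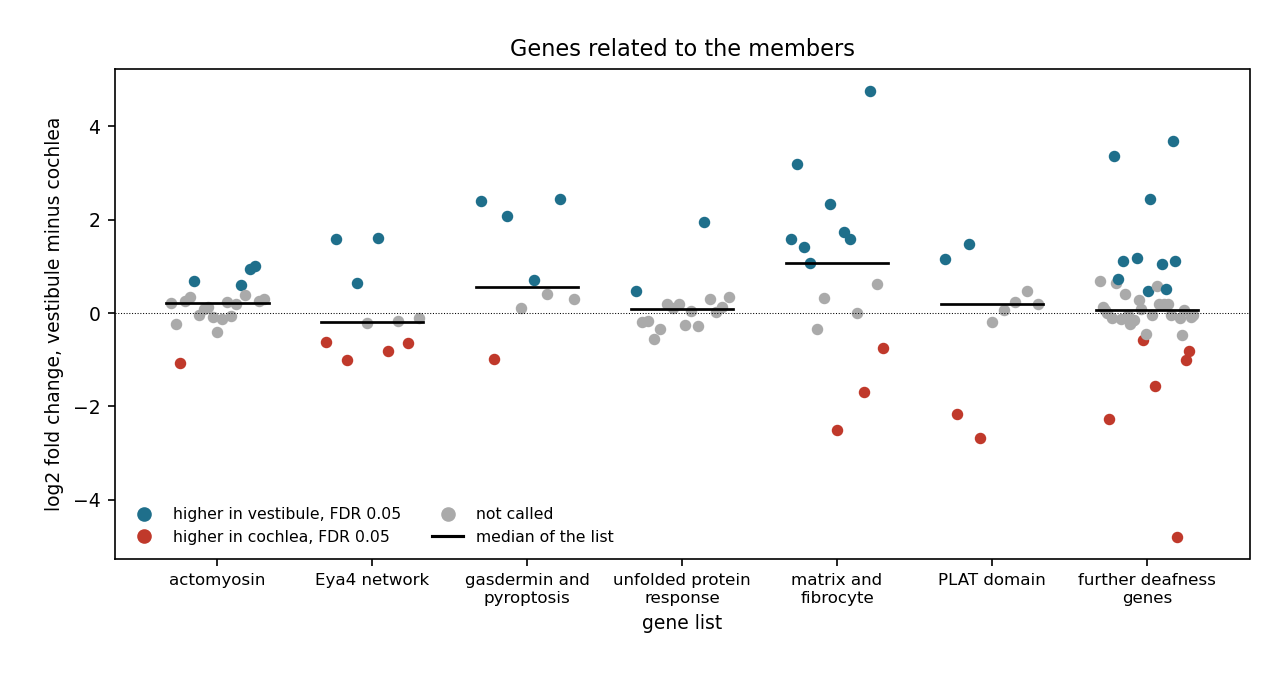
Log2 fold change, vestibule minus cochlea, of each tested gene of the 7 lists of related genes, coloured by the call at an FDR of 0.05, with a line at the median of each list. The medians run from −0.20 for the network of Eya4 to 1.08 for the matrix and fibrocyte genes, and 6 of the 7 lists hold genes called in each direction.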

How the data were processed

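The authors aligned the reads to GRCm38 with TopHat2 (2.1.0) and counted read pairs per Ensembl gene with HTSeq (0.5.4p5). They deposited raw counts per gene and a matrix of log2 RPKM for 14722 genes, which also gave the gene lengths used here. Versions follow the submitters' processing notes. Summary lines, 18.5% to 20.6% of the listed counts, stayed out of library sizes and tests.

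The genes that reached 1 CPM in 3 or more of the 6 libraries entered edgeR 4.0.16 (R 4.3.3). Libraries were scaled by TMM, the quasi-likelihood test was used, and p-values were adjusted by Benjamini-Hochberg, with calls at an FDR of 0.05. CPM in the text is not TMM-scaled. The test was checked on simulated data. Alternatives were DESeq2 1.42.0, limma-voom (limma 3.58.1), edgeR's exact test, other scalings and filters, a fold change of 1.3 at an FDR of 0.1, a replicate block, and leaving out each library. Offsets for gene length, levels per marker CPM and TMM-scaled CPM were added after seeing the data.

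The 10 genes and the lists were chosen with earlier results of these data known. Named from each list were the called genes with the largest change, at most 2 per direction, and Myh10, Eya1, Eya2, Eya3 and Gsdmd. Genes of 2 lists that this rule names are not reported here, though the counts of the lists include them. Diaph2, Diaph3, Fmnl2, Casp4 and Mpp6 were named after their values were seen. All 133 list symbols matched, 2 through synonyms. Of the other marker lists, all 6 melanocyte, 4 of 5 endothelial, 4 of 6 Schwann cell and 5 of 7 dark cell and stria markers were higher in the vestibule, and 2 of 6 neuronal ones in the cochlea. Cartilage markers went both ways, 2 of 6 in each direction, and of red blood cell and skeletal muscle markers none was called. Coordinates are from GENCODE vM21 on GRCm38, and upstream windows from RefSeq on GRCm38.p6.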

Additional observations from a re-analysis of the deposited data

How the results depend on the processing

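None of the 10 genes changed direction in any of the 16 alternatives, and Coch was called in all of them. With 1 library left out, genes called higher in the cochlea numbered 925 to 1863 (1711 with all libraries) and higher in the vestibule 1342 to 2694 (2325), lowest without vestibular replicate 2, and 1522 were higher in the vestibule without vestibular replicate 1 and 1035 in the cochlea without cochlear replicate 2. The members called numbered 0 to 1 higher in the cochlea (0 without vestibular replicate 2 or 3) and 1 to 4 higher in the vestibule (1 without cochlear replicate 1 or 2 or vestibular replicate 2, and 4 without cochlear replicate 3). With library sizes alone, the median over all genes shifted to a log2 fold change of 0.13, 68.8% of calls were higher in the vestibule (1251 and 2754 genes) against 57.6% with TMM, and no member was called higher in the cochlea (0 of 10). The log2 fold change of Myh10, −0.04 with all libraries and −0.40 without vestibular replicate 1, turned to 0.10 with library sizes alone, to 0.07 without cochlear replicate 2, 0.18 without cochlear replicate 3 and 0.25 without vestibular replicate 3, none of them called. In the gasdermin list, calls in the vestibule fell from 4 to 0 without vestibular replicate 1 or 2 and to 1 without vestibular replicate 3, since 3 of those genes were then not tested and Gsdmd was called in the last of these alone. The cause of the other changes was not tested.

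Replicate numbers are shared between the tissues but did not pair the libraries: deviations of same-numbered libraries from their tissue means correlated at −0.18, −0.26 and −0.48. With a replicate block, 1009 genes were higher in the cochlea and 1609 in the vestibule, 0 members were called there and 1 in the vestibule (Coch), and with the length offset and the replicate block together 1 member was called in each tissue (Eya4 and Coch). The depth, 24464483 counts or more on genes, limits the low genes most, Pjvk and Loxhd1 in the cochlea among them.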
